A study of Mus musculus with 27 samples.

Results

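Glycolysis splits glucose into pyruvate, and several of its enzymes exist as a form found in most tissues and a form made mainly by male germ cells. The 10 mouse genes described here were taken by symbol, with earlier results of these data known: Hk1 and Hk2 (hexokinases, the first step), Gapdh and Gapdhs (glyceraldehyde-phosphate dehydrogenase and its sperm form), Pgk1 and Pgk2 (phosphoglycerate kinase and its testis form), Pkm (pyruvate kinase, the last step), and Ldha, Ldhb and Ldhc (lactate dehydrogenase subunits, which interconvert pyruvate and lactate). They are 10 of the 20847 genes listed over 4 deposited count tables, with 8 listed for stem cells, 9 for germinal vesicle (GV) oocytes, 9 for post-GV oocytes and 10 for round spermatids. Pgk2 in stem cells and oocytes, and Gapdhs in stem cells, were not analysed here.

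The study measured RNA in cells without proteins that act on N6-methyladenosine (m6A), a methyl mark on mRNA: mutants of Mettl3, the enzyme that writes it, and of Ythdf1, Ythdf2 and Ythdf3, cytoplasmic proteins that bind it. Embryonic stem cells of the KH2 line (C57BL/6 x 129/Sv, grown in serum with LIF) gave 12 poly(A) libraries, 2 each of Ythdf1-/-, Ythdf2-/-, Ythdf3-/-, the Ythdf1-/-Ythdf2-/-Ythdf3-/- triple knockout, Mettl3-/- and wild type (WT). GV oocytes (BDF1 X C57BL/6 X Jax#003651) gave 3 SMART-seq2 libraries from Mettl3f/f Zp3-Cre+ females and 4 from Mettl3f/f Zp3-Cre- females. Zp3-Cre is active in oocytes and not in the cells around them. Post-GV oocytes (CB6F1 X C57BL/6) gave 2 Ythdf2-/- and 3 Ythdf2+/- libraries, so the controls there lacked 1 allele. Sorted round spermatids of the same cross gave 2 Ythdf2-/- libraries and 1 Ythdf2+/+ library, made after ribosomal RNA depletion. Nothing in the labels ties stem cell libraries to cultures or gives the number of clones per genotype, so p-values measure the spread between these libraries, which may be technical. No ages of the animals were given.

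Germ cells use these enzymes in a division of labour that is well known in the mouse. Spermatids and sperm rely on germ cell forms, of which Ldhc is the classic testis lactate dehydrogenase, Gapdhs is bound to the sperm tail, and Pgk2 is an intronless copy of the X-linked Pgk1 that is used when the X chromosome is silent. Growing mouse oocytes take up pyruvate and use little glucose themselves, while the cumulus and granulosa cells around them carry out glycolysis. Ldhb makes the subunit of lactate dehydrogenase that is abundant in oocytes and heart, and Ldha the one abundant in muscle and in rapidly dividing cells.

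Depth differed between the tables. The stem cell libraries held 612598 to 1111764 counts each, the GV oocyte libraries 6484397 to 18181397, the post-GV libraries 12409822 to 25015081 and the spermatid libraries 18843689 to 32759740. The highest gene had 1344 to 2089 counts per kilobase of exon in stem cell libraries. It had 29477 to 116461 in GV, 73090 to 285971 in post-GV and 169790 to 219196 in spermatid libraries. What narrowed the stem cell range was not tested, and it limits comparison of abundant genes between tables. Mettl3 transcript stood at 16.6 ± 2.01 CPM (counts scaled to library size) in Mettl3-/- against 139 ± 2.29 CPM in WT stem cells, and at 1.91 ± 1.37 CPM in Zp3-Cre+ against 27.2 ± 11.7 CPM in Zp3-Cre- oocytes (SD). No Ythdf transcript was called lower by edgeR in its own knockout, singly or in the triple knockout. Ythdf2 stood at 14.3 ± 5.39 CPM in Ythdf2-/- and 25.5 ± 0.821 CPM in WT stem cells, at 177 ± 29.4 CPM in Ythdf2-/- and 98.6 ± 30.5 CPM in Ythdf2+/- oocytes, and at 28.9 ± 1.40 CPM in Ythdf2-/- and 29.2 CPM in the Ythdf2+/+ spermatids. The labels do not name the deleted part, so whole-gene counts do not check the Ythdf genotypes, and directions below are those of libraries as labelled.

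Ldhc and Ldha lie next to each other on chromosome 7, both on the plus strand (Ldha 46841475 to 46855627, Ldhc 46861203 to 46878142, GRCm38, GENCODE M21). Because their levels part so widely between cell types, the 250 bases before the RefSeq start of both are shown, with the same stretch of the spermatid genes Pgk2 and Gapdhs, 5′ to 3′ on the gene's own strand. Capitals mark TGACG on either strand, the half-site of the cAMP response element, which the testis activator CREM is known to bind.
Ldhc, chr7:46861013-46861262, plus strand: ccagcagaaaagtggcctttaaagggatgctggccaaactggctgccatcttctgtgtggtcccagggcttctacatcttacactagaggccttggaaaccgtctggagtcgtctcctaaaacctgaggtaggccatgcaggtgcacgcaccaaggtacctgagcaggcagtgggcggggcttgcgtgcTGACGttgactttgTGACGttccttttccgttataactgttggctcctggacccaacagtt
Ldha, chr7:46845554-46845803, plus strand: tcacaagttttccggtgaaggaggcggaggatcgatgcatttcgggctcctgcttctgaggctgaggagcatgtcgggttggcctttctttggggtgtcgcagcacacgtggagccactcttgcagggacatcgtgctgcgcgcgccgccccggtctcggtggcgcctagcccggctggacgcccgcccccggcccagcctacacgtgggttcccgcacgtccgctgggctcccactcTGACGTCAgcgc
Pgk2, chr17:40208610-40208859, minus strand: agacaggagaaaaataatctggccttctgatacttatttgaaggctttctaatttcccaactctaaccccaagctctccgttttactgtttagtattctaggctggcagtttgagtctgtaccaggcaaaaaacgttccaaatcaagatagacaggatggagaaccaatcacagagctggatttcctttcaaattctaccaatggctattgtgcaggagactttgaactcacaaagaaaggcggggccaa
Gapdhs, chr7:30743682-30743931, minus strand: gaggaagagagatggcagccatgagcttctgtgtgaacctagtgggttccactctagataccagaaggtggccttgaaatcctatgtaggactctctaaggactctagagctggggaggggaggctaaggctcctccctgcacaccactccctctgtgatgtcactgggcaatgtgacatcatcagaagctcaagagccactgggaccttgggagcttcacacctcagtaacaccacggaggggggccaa
The Ldhc window held 2 copies, at -61 and -47 from the start. The Ldha window also held 2, which overlap as the palindrome TGACGTCA, and the Pgk2 and Gapdhs windows held 0. Of 32851 RefSeq windows of this length 17.8% held at least 1 copy, and a match is a description of letters alone. All 10 genes had a window in the RefSeq table (GRCm38.p6), and those of Gapdhs, Pgk2 and Ldhc held 1, 3 and 8 CpG against 25 for Ldha, 17 for Pgk1 and 8 for Gapdh, with a median of 6 over all windows.

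Levels of different genes were compared only per length, as counts per kilobase of annotated exon, scaled so that each library sums to the same total, called per-kb units below. The tables come from different library kits, so they are set side by side with no test. In round spermatids the germ cell forms led. Ldhc stood at 11070 and 11651 per-kb units in Ythdf2-/- and 11460 in Ythdf2+/+ spermatids, above 99.98% of the genes in that table. Pgk2 stood at 1102 and 1061 per-kb units in Ythdf2-/- and 1053 in Ythdf2+/+ spermatids. Per exon length both were above every other member in 3 of 3 libraries, and both differed little between the libraries. The order of Pgk2 and Ldha rested on the length used. Per coding length Pgk2 stood at 610 and 597 in Ythdf2-/- and 571 in Ythdf2+/+ cells. Ldha stood there at 553 and 642 in Ythdf2-/- and 700 in Ythdf2+/+ cells.

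Per exon length Ldha was the third of the 10 in spermatids, at 424 and 486 per-kb units in Ythdf2-/- and 549 in Ythdf2+/+ cells. Hk1 followed at 349 and 299 in Ythdf2-/- against 316 in Ythdf2+/+ cells, and Gapdhs at 299 and 216 in Ythdf2-/- against 265 in Ythdf2+/+ cells. The lowest Hk1 and the highest Gapdhs level nearly coincided, while Hk1 was the higher within each library. Pkm stood at 82.4 and 100.3 per-kb units in Ythdf2-/- and 48.3 in Ythdf2+/+ spermatids. The 4 remaining genes, Pgk1, Ldhb, Gapdh and Hk2, were low, with per-kb levels between 0.352 and 8.16 in all 3 libraries.

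Set against its somatic partner per length, each germ cell form was higher in 3 of 3 spermatid libraries. Ldhc over Ldha ran from 20.9 to 26.1, Pgk2 over Pgk1 from 135 to 422 and Gapdhs over Gapdh from 105 to 717. Hk1 over Hk2 ran from 324 to 851. Per exon length the germ cell form thus made up 95.4% to 96.3% of the 3 lactate dehydrogenase subunits, 99.3% to 99.8% of phosphoglycerate kinase and 99.1% to 99.9% of glyceraldehyde-phosphate dehydrogenase. Pgk2 is a near copy of Pgk1, and Gapdh has many pseudogene copies, so how reads were shared among copies could move these values. With coding length in place of exon length the median of Ldhc over Ldha was 12.5, against 24.0. Pgk2 over Pgk1 and Gapdhs over Gapdh were also smaller per coding length. There Gapdhs stood at 145 and 106 in Ythdf2-/- against 126 in Ythdf2+/+ spermatids. Gapdh stood there at 0.682 and 3.43 in Ythdf2-/- against 1.27 in Ythdf2+/+ spermatids.

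The spermatid libraries carried the defining markers of their label. The summed level of 10 round spermatid markers, such as Prm1 and Tnp1, was 44057 to 63815 per-kb units in Ythdf2-/- and 36884 in Ythdf2+/+ cells, while 6 spermatocyte markers summed to 512 to 645 in Ythdf2-/- and 829 in Ythdf2+/+ cells. Of the 7 Sertoli markers 4 were listed, summing to 5.09 to 13.2 in Ythdf2-/- and 6.51 in Ythdf2+/+ cells.

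**Figure D1:**
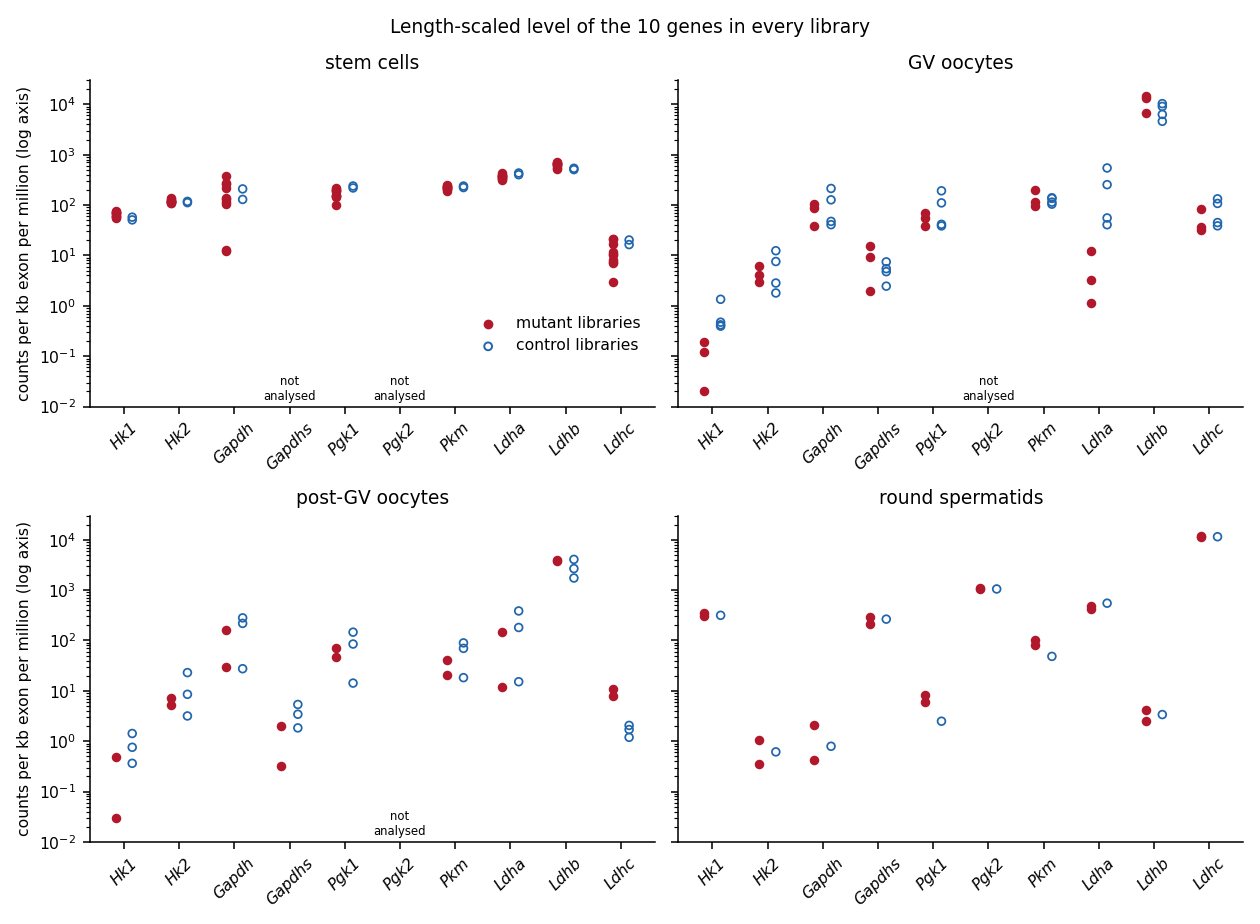
Level of each of the 10 genes in each of the 27 libraries, in per-kb units on a log axis, in 4 panels by cell type; filled red points are mutant libraries and open blue points are control libraries. Ldhb is the highest of the 10 in both kinds of oocyte, and Ldhc is the highest in round spermatids at 11070 to 11651. The stem cell genes lie closer together, in libraries where no gene had more than 2089 counts per kilobase of exon.

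In oocytes Ldhb stood far above the rest. All 8 oocyte markers were listed in both oocyte tables, summing to 33639 to 40230 per-kb units in Zp3-Cre+ and 21396 to 36980 in Zp3-Cre- GV oocytes, and to 11582 to 13005 in Ythdf2-/- and 3868 to 7187 in Ythdf2+/- post-GV oocytes. Ldhb ran from 4598 to 14777 per-kb units over the 7 GV libraries, above 99.98% of genes, and from 1737 to 4068 over the 5 post-GV libraries. Ldhb over Ldha was above 1 in 7 of 7 and 5 of 5 libraries, with a median of 223 in GV and 26.2 in post-GV oocytes. Ldhb made up 88.7% to 99.8% of the lactate dehydrogenase subunits in GV oocytes and 81.8% to 99.6% in post-GV oocytes. At the other end stood Hk1, at 0.0204 to 1.35 per-kb units in GV and 0.0303 to 1.42 in post-GV oocytes. It was the lowest of the 9 in every oocyte library except Ythdf2+/- library 2, where Ldhc was lower, and Hk2 was above it in 12 of 12.

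The germ cell forms were not confined to the male cells. Ldhc had 170 to 808 counts and 32.1 to 133 per-kb units in GV oocytes, and 7 to 65 counts in post-GV oocytes. Gapdhs stood at 1.95 to 15.3 per-kb units in GV oocytes, 1.14% to 14.7% of the Gapdh and Gapdhs sum per exon length. That share rested on the length used. Its mean was 9.22% in Zp3-Cre+ and 7.53% in Zp3-Cre- libraries per exon length. Per coding length the mean was 2.96% in Zp3-Cre+ and 2.42% in Zp3-Cre- libraries. The genes Pgk1, Gapdh, Pkm and Ldhc had overlapping ranges in GV oocytes, so their order there was not settled.

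In stem cells Ldhb (506 to 706 per-kb units) and Ldha (313 to 433) were the highest of the 8, and Ldhc (2.99 to 21.6, from 1 to 12 counts) the lowest except in Mettl3-/- library B, where Gapdh was lower. The order of Ldha and Ldhb rested on the length used: Ldhb over Ldha was 1.24 to 2.12 per exon length, with a median of 1.73, and the median was 0.886 per coding length. Between them and Ldhc came Pkm (187 to 251), Pgk1 (102.2 to 239), Hk2 (112 to 136) and Hk1 (50.8 to 76.4). Hk2 exceeded Hk1 in 12 of 12 libraries, 1.54 to 2.33 times. Gapdh had by far the widest range, 12.2 to 384.

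**Figure D2:**
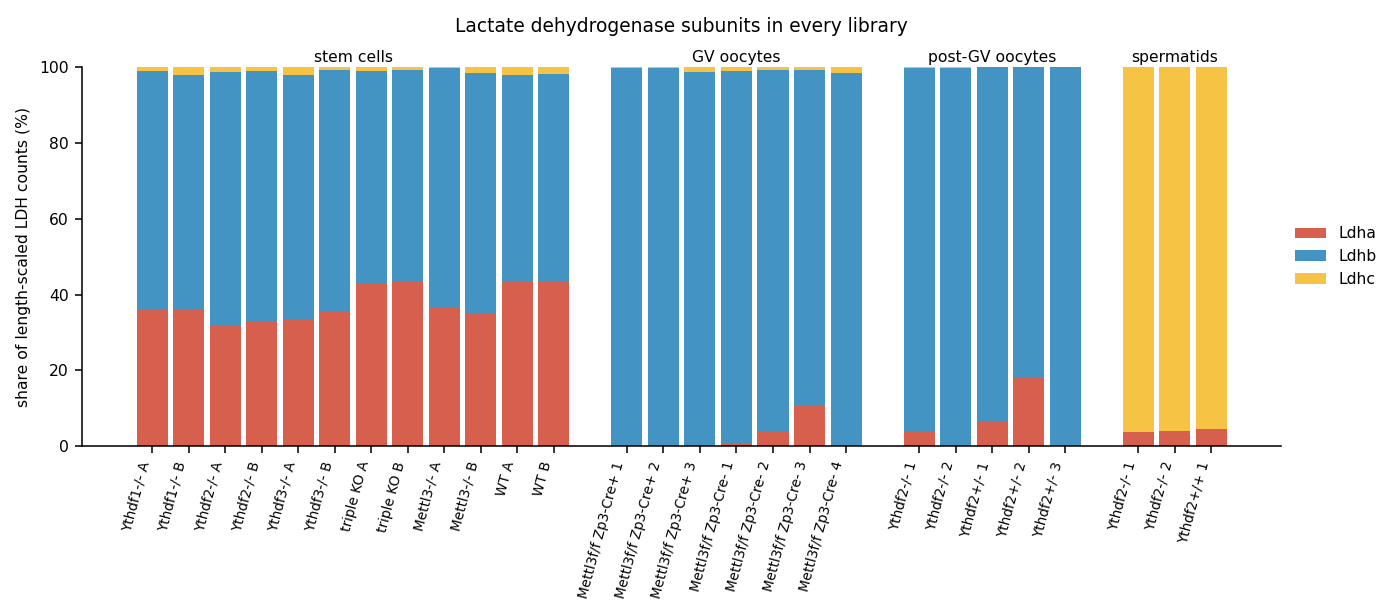
Share of each lactate dehydrogenase subunit (percent of length-scaled Ldha, Ldhb and Ldhc counts) in each of the 27 libraries, grouped by cell type with mutants left of their controls. Ldhc makes up 95.4% to 96.3% in spermatids, Ldhb 88.7% to 99.8% in GV oocytes, and Ldha 31.7% to 43.7% in stem cells.

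The knockouts were compared with their own controls by edgeR's quasi-likelihood test on the counts, with Benjamini-Hochberg adjustment over all genes tested in the table. Genes with an adjusted p under 0.05 are called, changes are log2 ± standard error, and levels are CPM scaled by TMM (mean ± SD). Of the 8 genes listed in stem cells 7 passed the filter on low counts, and Ldhc did not. The 5 stem cell comparisons share the same 2 WT libraries, so a shift in those 2 enters all 5 and the comparisons are not independent. The median change of the 7 genes was 0.05 in Ythdf1-/-, 0.12 in Ythdf2-/-, 0.05 in Ythdf3-/-, 0.12 in the triple knockout and -0.08 in Mettl3-/-, against 0.00 or -0.00 over all tested genes.

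In Ythdf2-/- stem cells 4 of 7 tested genes were called, 2 higher and 2 lower, where 1.91% of all tested genes were called. Pgk1 stood at 80.2 and 115 CPM in the Ythdf2-/- libraries, against 181 and 169 CPM in WT. Both knockout libraries lay below both WT libraries. Pgk1 fell by 0.82 ± 0.11 on the log2 scale (adjusted p = 3.66e-07).

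Ldhb, at 363 and 389 CPM in Ythdf2-/- against 285 and 273 CPM in WT, rose by 0.43 ± 0.07 (adjusted p = 6.68e-05). Hk1, at 207 and 221 CPM in Ythdf2-/- against 166 and 149 CPM in WT, rose by 0.45 ± 0.09 (adjusted p = 0.00575). Ldha, at 362 and 409.7 CPM in Ythdf2-/- against 484 and 456 CPM in WT, fell by 0.28 ± 0.07 (adjusted p = 0.0130). The subunits of lactate dehydrogenase thus moved in opposite directions. The groups did not overlap for any of these 3 genes, which with 2 libraries a group adds little to a call. How many of all tested genes had groups without overlap was not counted. By DESeq2, which called 10 genes in all in this comparison, none of the 4 was called, with an adjusted p of 0.107 for Pgk1, 0.435 for Ldhb and 1 for Ldha and Hk1. In edgeR the Ldha call was lost without Ythdf2-/- library A (adjusted p = 0.385) or WT library A (adjusted p = 0.285), and the Hk1 call without Ythdf2-/- library B (adjusted p = 0.235) or WT library B (adjusted p = 0.162). Replicate stem cell libraries lay closer together than counting error alone, with a mean chi-square per gene between 0.6996 and 0.840. The spread behind edgeR's p-values and standard errors may thus be smaller than that between independent cultures. For Pgk1 in Ythdf2-/- cells the standard error was 0.11 by edgeR and 0.21 by DESeq2.

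In Mettl3-/- stem cells 3 of 7 tested genes were called, with a background of 30.4%. Pgk1 stood at 118 and 119 CPM in Mettl3-/- and 181 and 169 CPM in WT, and fell by 0.55 ± 0.11 (adjusted p = 0.000160). Ldhb, at 368 and 377 CPM in Mettl3-/- against 285 and 273 CPM in WT, rose by 0.42 ± 0.07 (adjusted p = 1.02e-05). Hk1, at 227 and 216 CPM in Mettl3-/- against 166 and 149 CPM in WT, rose by 0.49 ± 0.09 (adjusted p = 0.000144). For all 3 the Mettl3-/- libraries lay outside the WT range, which again adds little to a call and was not counted over all genes. DESeq2 called Ldhb and not Pgk1 (adjusted p = 0.0834) or Hk1 (adjusted p = 0.0562). Pkm was 0.19 ± 0.08 lower (348 ± 28.2 in Mettl3-/- against 393 ± 14.3 CPM in WT, adjusted p = 0.0603), and was called without Mettl3-/- library A (-0.26, adjusted p = 0.0432) and with a minimum count of 30 (-0.21, adjusted p = 0.0308).

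Gapdh showed the widest difference of any of the 10 in stem cells. It had 11 and 15 counts in the Mettl3-/- libraries and 324 and 206 in WT, or 18.1 and 17.6 CPM in Mettl3-/- against 292 and 184 CPM in WT. No other stem cell library had fewer than 122 counts. The change of -3.73 ± 1.19, or 13.3-fold lower, had an adjusted p of 0.0601 in the fit to all 12 libraries and was not called. It was called by DESeq2 (adjusted p = 4.13e-06) and by edgeR on the Mettl3-/- and WT libraries alone (adjusted p = 6.60e-79). The p of that smaller edgeR fit cannot be read as a measure of replicate spread. In a chi-square test of the WT pair, with 324 and 206 counts, Gapdh differed more than any other gene (27.6). The Gapdh change stayed between -4.02 and -3.36 with any 1 of the 4 libraries left out, and was called in none of these fits.

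Gapdh also differed between replicates of the other stem cell groups. Triple knockout libraries A and B had 367 and 122 Gapdh counts, and the Ythdf3-/- libraries 237 and 148, although A was the smaller library in both groups. In a chi-square test of each replicate pair, Gapdh differed more than any other gene in the triple knockout (154 on 1 degree of freedom, 12247 genes), in Ythdf3-/- (45.1) and in WT (27.6). In the Mettl3-/- pair Gapdh differed by 0.00234, in the Ythdf1-/- pair by 3.32 and in the Ythdf2-/- pair by 2.85. Gapdh, a gene often used to normalise other measurements, was by this measure the least repeatable gene in 3 of the 6 pairs. How reads were shared among Gapdh and its pseudogene copies could move these counts too, and was not tested.

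In Ythdf3-/- stem cells 1 of 7 genes was called, with 2.84% called over all genes. Ldhb, at 355 and 362 CPM in Ythdf3-/- against 285 and 273 CPM in WT, rose by 0.36 ± 0.08 (adjusted p = 0.00384), a call lost in DESeq2 (adjusted p = 0.806) and without Ythdf3-/- library B (adjusted p = 0.144) or WT library B (adjusted p = 0.0697). In Ythdf1-/- stem cells 0 of 7 were called by edgeR or DESeq2, with a background of 3.45% and 3 at an unadjusted p under 0.05. Ldhb came nearest there, at 318 and 349 CPM in Ythdf1-/- against 285 and 273 CPM in WT, a change of 0.26 ± 0.07 (adjusted p = 0.0503). Ldha was 0.19 ± 0.07 lower in Ythdf1-/- and 0.20 ± 0.07 lower in Ythdf3-/- than in WT, neither called.

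In the triple knockout 0 of 7 genes were called by edgeR or DESeq2, with 25.1% of all genes called and 2 of the 7 at an unadjusted p under 0.05. Pgk1 stood at 126 and 156 CPM in the triple knockout against 181 and 169 CPM in WT, a change of -0.30 ± 0.11 (adjusted p = 0.0638). It was called with triple knockout library B left out (-0.47, adjusted p = 0.0406). Ldhb differed by 0.12 ± 0.08 (95% interval -0.04 to 0.28), and Ldha by 0.07 ± 0.07 (-0.06 to 0.20). Whether the triple knockout differed from the Ythdf2-/- cells was not tested. Hk2 and Pkm were called in none of the 5 stem cell comparisons, with changes between 0.05 and 0.14 for Hk2 and between -0.19 and 0.12 for Pkm.

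**Figure D3:**
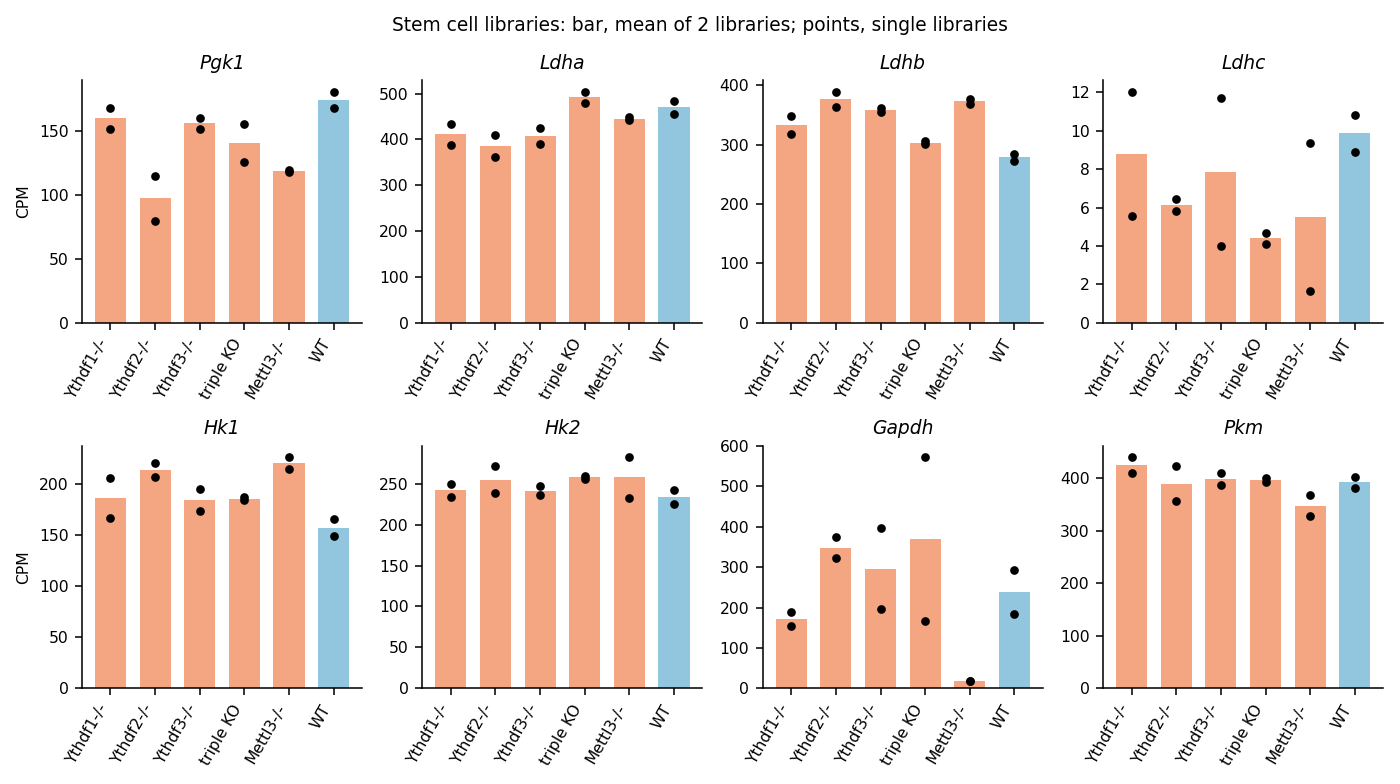
CPM of the 8 genes listed in stem cells; bars are means of 2 libraries, points are single libraries, and the 5 knockouts stand left of WT. Gapdh is at 18.1 and 17.6 CPM in Mettl3-/- cells and splits widely between the 2 triple knockout libraries (572 and 167 CPM), and Ldhb is lowest in WT.

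Around the 10 genes, 5 lists of related genes were counted. Over all tested genes 3.45% were called in Ythdf1-/-, 1.91% in Ythdf2-/-, 2.84% in Ythdf3-/-, 25.1% in the triple knockout and 30.4% in Mettl3-/-. Of the 11 other glycolytic enzymes tested in stem cells, 0 were called in each Ythdf knockout and 2 in Mettl3-/-, where Aldoa (aldolase) fell by 0.17 ± 0.06 and Pfkp (a phosphofructokinase) by 1.08 ± 0.42. Of those not called, 4 in Ythdf1-/-, 5 in Ythdf2-/-, 1 in Ythdf3-/- and 3 in the triple knockout had an unadjusted p under 0.05. Their median change was -0.17 in Mettl3-/- and -0.27 in the triple knockout, against -0.00 over all tested genes in both. By DESeq2 0 of the 11 were called in each of the 5 comparisons.

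Some regulators of the pathway were called in 4 of the 5 comparisons. Of 10 tested, 3 were called in Ythdf1-/- (1 higher), 3 in Ythdf2-/- (1 higher), 0 in Ythdf3-/- (5 at an unadjusted p under 0.05), 5 in the triple knockout (3 higher) and 4 in Mettl3-/- (2 higher). The shares over all tested genes were 3.45%, 1.91%, 2.84%, 25.1% and 30.4% in the same order. Pfkfb2, which sets the level of the main activator of phosphofructokinase, stood at 59.6 ± 6.53 CPM in WT and fell by 0.71 ± 0.18 in Ythdf1-/-, 0.79 ± 0.19 in Ythdf2-/-, 1.26 ± 0.22 in the triple knockout and 1.16 ± 0.21 in Mettl3-/- cells. Myc, a transcription factor known to raise glycolytic genes, fell by 1.54 ± 0.27 in Ythdf1-/-, 1.11 ± 0.26 in Ythdf2-/-, 1.21 ± 0.28 in the triple knockout and 2.57 ± 0.35 in Mettl3-/- cells. G6pdx, the entry enzyme of the pentose phosphate pathway, rose by 0.35 ± 0.09 in Ythdf1-/-, 0.51 ± 0.09 in Ythdf2-/- and 0.40 ± 0.10 in the triple knockout. DESeq2 called 0 of these regulators in the single knockouts, 1 in the triple knockout and 2 in Mettl3-/-.

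For the lists that follow, the shares over all tested genes were 3.45% in Ythdf1-/-, 1.91% in Ythdf2-/-, 2.84% in Ythdf3-/-, 25.1% in the triple knockout and 30.4% in Mettl3-/-. Of 9 tested transport genes, 2 were called in Ythdf1-/-, 1 in Ythdf2-/-, 1 in Ythdf3-/-, 0 in the triple knockout (0 at an unadjusted p under 0.05) and 4 in Mettl3-/- cells. DESeq2 called 2 in Mettl3-/- and 0 in the others. Slc16a3, a lactate exporter, fell by 0.66 ± 0.18 in Ythdf1-/- and 0.76 ± 0.18 in Ythdf2-/- cells. Slc2a3, a glucose transporter, fell by 0.41 ± 0.08 in Mettl3-/- and rose by 0.25 ± 0.07 in Ythdf3-/- cells. Of 10 tested genes of pyruvate dehydrogenase and its control, 4 were called in the triple knockout and 4 in Mettl3-/- cells, 2 up and 2 down in each, 1 in Ythdf3-/-, and 0 in Ythdf1-/- (3 at an unadjusted p under 0.05) and Ythdf2-/- (0). DESeq2 called 1 in the triple knockout, 2 in Mettl3-/- and 0 in the others. Pdk1, a kinase that shuts the complex off, fell by 0.94 ± 0.30 in the triple knockout and 1.89 ± 0.35 in Mettl3-/- cells. Of the other testis-enriched glycolysis genes 1 was tested, Ldhal6b, which fell by 0.64 ± 0.20 in Mettl3-/- cells and was not called in the other 4 comparisons. Apart from Mettl3-/-, its unadjusted p was under 0.05 in 0 comparisons, and DESeq2 called it in 0.

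In Mettl3f/f Zp3-Cre+ GV oocytes 2 of 9 tested genes were called, both lower, with a background of 28.8%. The median change of the 9 was -0.47, against 0.04 over all tested genes. Ldha stood at 1.23, 12.5 and 3.15 CPM in the Zp3-Cre+ libraries, against 60.5, 255, 526 and 38.7 CPM in the Zp3-Cre- libraries. The groups did not overlap, and the controls themselves spread widely. Ldha fell by 5.26 ± 1.14 on the log2 scale, 38.4-fold (adjusted p = 0.00860), and it stayed called with each library left out in turn (-6.83 to -4.44).

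Most markers of the surrounding somatic cells were lower in the same libraries as Ldha. The summed level of the granulosa and cumulus list (10 of 11 genes listed) was 42.1, 347 and 109 per-kb units in the Zp3-Cre+ libraries, against 414, 1272, 3651 and 522 in the Zp3-Cre- libraries. Among its defining genes Inha stood at 11.5, 256 and 33.4 in Zp3-Cre+ against 294, 767, 1829 and 345 in Zp3-Cre- libraries, and Fshr was at 0 in Zp3-Cre+ library 1. Of the 10 genes 6 were lower in every Zp3-Cre+ than in every Zp3-Cre- library, and 4 overlapped. The same count over all genes was not made. Nr5a2, which overlapped, stood at 19.7, 26.8 and 44.7 in Zp3-Cre+ against 14.2, 26.9, 53.96 and 24.4 in Zp3-Cre- libraries, and Kitl at 4.93, 9.38 and 14.4 in Zp3-Cre+ against 6.02, 14.8, 38.6 and 13.5 in Zp3-Cre- libraries. Zp3-Cre- libraries 2 and 3, with the highest marker sums, also had the most Ldha, Pgk1, Gapdh and Hk2. Without those 2 libraries, an alternative chosen after seeing the data in which 22.8% of genes were called, Ldha fell by 3.24 ± 0.75 (adjusted p = 0.0160). In such bulk samples, fewer somatic cells and less RNA per cell cannot be told apart. The part of somatic RNA in the Ldha difference was not tested beyond these values.

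Hk1, at 0.0559, 0.514 and 0.300 CPM in Zp3-Cre+ against 1.11, 1.22, 3.36 and 1.03 CPM in Zp3-Cre- oocytes, fell by 2.51 ± 0.83 (adjusted p = 0.0456). The counts behind it were 1 to 8 in Zp3-Cre+ and 10 to 32 in Zp3-Cre- libraries. Its call was lost in 6 of 7 fits that left 1 library out, all but the fit without Zp3-Cre- library 1, and without Zp3-Cre- libraries 2 and 3 (-1.997 ± 0.97, adjusted p = 0.167). Ldhc, which was 0.69 ± 0.50 lower in the whole set (24.3 ± 12.2 in Zp3-Cre+ against 39.0 ± 22.4 CPM in Zp3-Cre-, adjusted p = 0.320), was called lower without those 2 libraries (-1.40 ± 0.38, adjusted p = 0.0309).

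Ldhb, the main subunit, stood at 7435, 6671 and 2972 CPM in Zp3-Cre+ against 5335, 2997, 2106 and 4097 CPM in Zp3-Cre- oocytes, and the groups overlapped (0.65 ± 0.37, adjusted p = 0.209). Pkm (0.19 ± 0.28), Gapdh (-0.40 ± 0.57), Gapdhs (0.87 ± 0.66), Pgk1 (-0.74 ± 0.53) and Hk2 (-0.47 ± 0.61) were not called. Without Zp3-Cre- libraries 2 and 3 the uncalled changes of Gapdh, Pgk1 and Hk2 turned round, to 0.71 ± 0.42, 0.35 ± 0.35 and 0.78 ± 0.46. The share of Ldhb in lactate dehydrogenase was 99.4% ± 0.593 in Zp3-Cre+ (SD, n = 3) and 95.2% ± 4.51 in Zp3-Cre- oocytes (n = 4). An exact two-sided permutation test gave p = 0.0571, the smallest that 3 against 4 libraries allow, and 0.200 after adjustment over 7 shares.

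Of the related genes in GV oocytes, 1 of 9 other glycolytic enzymes was called, 5 of 10 flux regulators (2 higher), 0 of 8 transport genes, 3 of 10 genes around pyruvate dehydrogenase (2 higher) and 1 of 2 testis-enriched genes. Over all tested genes 28.8% were called. Among transport genes 3 had an unadjusted p under 0.05. DESeq2 called 3 transport genes, 4 other enzymes and 5 genes around pyruvate dehydrogenase. Tigar, a phosphatase that diverts sugar from glycolysis, rose by 1.61 ± 0.20 (170.4 ± 26.1 CPM in Zp3-Cre+ against 55.9 ± 7.08 CPM in Zp3-Cre-). Pdha2, an intronless testis copy of a pyruvate dehydrogenase subunit, rose by 2.14 ± 0.44 (12.1 ± 2.93 in Zp3-Cre+ against 2.72 ± 1.32 CPM in Zp3-Cre-), and Pdp2, a phosphatase that turns that enzyme on, by 2.401 ± 0.43. Pfkp fell by 1.71 ± 0.54 and Myc by 3.10 ± 0.90, while the granulosa and cumulus marker sums were lower in the Zp3-Cre+ libraries. The sums of the steroidogenic (Leydig) list overlapped, at 19.6 to 178 per-kb units in Zp3-Cre+ and 123 to 389 in Zp3-Cre- libraries. The part of somatic RNA in the changes of Pfkp and Myc was not tested.

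In Ythdf2-/- post-GV oocytes 0 of 9 genes were called, as were 0% of all 13910 tested genes, 782 of which had an unadjusted p under 0.05. DESeq2 called 94 genes and none of the 9. Ldhc had the smallest p, 0.0138 unadjusted. It stood at 3.53 and 5.04 CPM in Ythdf2-/- libraries, against 0.733, 0.477 and 1.12 CPM in Ythdf2+/- libraries, from 59 and 65 counts in Ythdf2-/- against 20, 7 and 22 in Ythdf2+/-. The groups did not overlap, and the change was 2.45 ± 0.74, 5.46-fold higher, at an adjusted p of 0.801. The other 8 changes lay between -1.59 ± 1.19 for Hk1 and 0.40 ± 0.55 for Ldhb, and the median of the 9 was -0.77, against -0.09 over all tested genes. Of these 8 only Gapdhs had groups that did not overlap, at 0.898 and 0.155 CPM in Ythdf2-/- against 1.502, 2.18 and 1.02 CPM in Ythdf2+/- libraries (adjusted p = 0.848). How many of all tested genes had groups without overlap was not counted here either.

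The post-GV libraries fell into batches that split both groups. The authors deposited batch-adjusted log2 values whose adjustment moved Ythdf2-/- library 1 with Ythdf2+/- libraries 1 and 2, and Ythdf2-/- library 2 with Ythdf2+/- library 3. Ldha stood at 141 and 12.1 CPM in the Ythdf2-/- libraries and at 163, 322 and 17.3 CPM in the Ythdf2+/- libraries, high in each library of the first batch and low in each of the second. Gapdh did the same (188 and 37.1 CPM in Ythdf2-/- against 245, 293 and 39.1 CPM in Ythdf2+/-). The steroidogenic list (Hsd3b1, Cyp11a1 and Star listed, 3 of 5) summed to 1369 and 36.1 per-kb units in Ythdf2-/- and 2676, 5769 and 43.4 in Ythdf2+/- libraries. The summed granulosa and cumulus list was also lower in the second batch, at 175 and 84.2 in Ythdf2-/- against 375, 377 and 90.7 in Ythdf2+/-. Not all of its genes were: Nr5a2 stood at 17.4 and 32.5 in Ythdf2-/- against 9.18, 11.3 and 8.58 in Ythdf2+/-, and Kitl at 15.8 and 29.6 in Ythdf2-/- against 10.3, 12.8 and 7.26 in Ythdf2+/- libraries. The part of these cells in the levels of Ldha and Gapdh was not tested.

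With the batch as a term, an alternative chosen after seeing the data, 1.85% of genes were called and again 0 of the 9, of which 1 had an unadjusted p under 0.05. Ldhc was then 2.36 ± 0.63 higher in Ythdf2-/- oocytes (adjusted p = 0.0661). Within the first batch it was 2.48 ± 0.81 higher (adjusted p = 0.0494, with the spread taken from the 2 heterozygous libraries and the lone knockout library assumed to vary like them), and within the second 2.15 higher with 1 library each and no test. The authors' deposited table of batch-adjusted log2 values gave Ldhc 6.34 and 6.10 in Ythdf2-/- against 5.09, 4.87 and 4.92 in Ythdf2+/- libraries. Changes of 3 genes had opposite signs in the batches: Pgk1 (-0.62 within the first and 1.53 within the second), Hk2 (-1.03 and 0.51) and Ldhb (0.91 and -0.30), none called in the first and with no test in the second. Of the 5 related lists 0 genes were called by edgeR or DESeq2 in this comparison, with 1 gene of each list at an unadjusted p under 0.05.

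**Figure D4:**
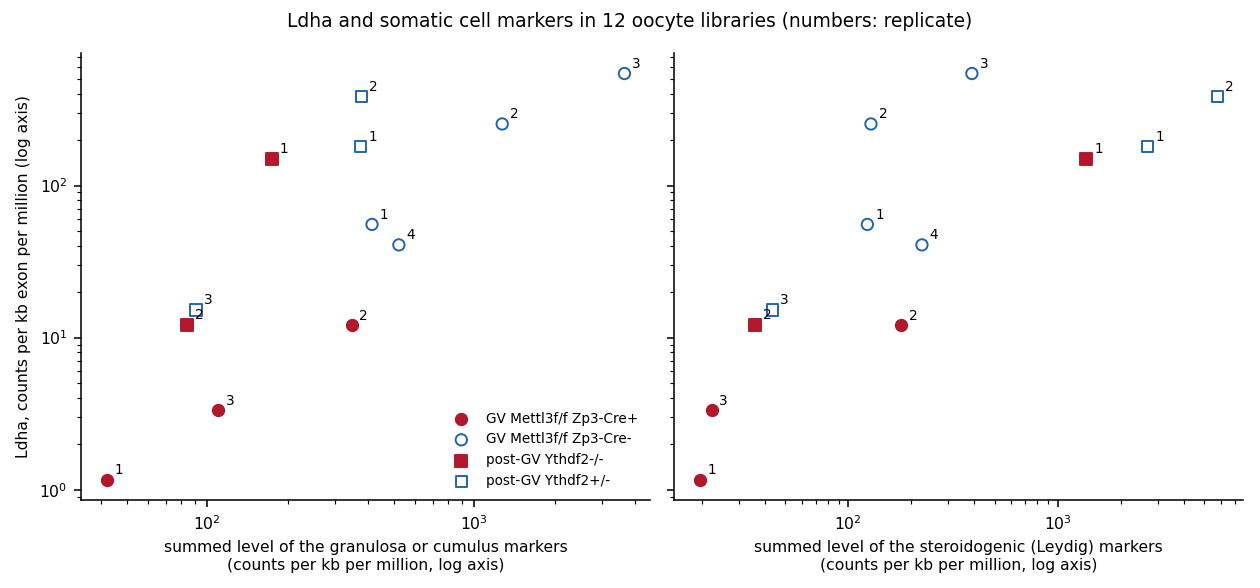
Ldha (per-kb units, log axis) against the summed level of granulosa or cumulus markers (left) and steroidogenic markers (right) in each of 12 oocyte libraries; circles are GV and squares post-GV, filled red mutant and open blue control, with the replicate number beside each point. The 3 Zp3-Cre+ libraries lie at 1.16 to 12.03 and the 4 Zp3-Cre- libraries at 40.7 to 545, and the post-GV libraries split by batch and not by genotype.

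In Ythdf2-/- round spermatids 1 of 10 genes was called, higher, with a background of 4.9%. The median change of the 10 was 0.05, against 0.08 over all tested genes. Pkm stood at 139 and 166 CPM in Ythdf2-/- against 80.0 CPM in the single Ythdf2+/+ library. It rose by 0.93 ± 0.26, or 1.91-fold (adjusted p = 0.0186), and DESeq2 did not call it (0.89, adjusted p = 0.0637). Without either knockout library the change was 0.79 or 0.98, with no test possible at 1 library a group. The lone Ythdf2+/+ library is assumed to vary like the knockouts, and its lower spermatid and higher spermatocyte marker sums stand with this difference. Their part in it was not tested.

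The germ cell forms did not pass the test. Ldhc stood at 5906 and 6086 CPM in Ythdf2-/- against 5994 CPM in Ythdf2+/+ spermatids (0.00 ± 0.22, 95% interval -0.44 to 0.44). Pgk2 stood at 605 and 570.1 CPM in Ythdf2-/- against 567 CPM in Ythdf2+/+ (0.05 ± 0.23, interval -0.41 to 0.51), and Gapdhs at 163 and 115 CPM in Ythdf2-/- against 141 CPM in Ythdf2+/+ (-0.03 ± 0.25). Pgk1, the somatic partner of Pgk2, was low throughout, at 6.19 and 4.47 CPM in Ythdf2-/- against 1.85 CPM in Ythdf2+/+ (1.52 ± 0.61, adjusted p = 0.138). Ldha was 0.26 ± 0.23 lower and Hk1 0.05 ± 0.23 higher, neither called.

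Related genes in spermatids moved in a few steps. Over all tested genes 4.9% were called. Of 14 other glycolytic enzymes tested, 3 were called, 1 higher and 2 lower. Pfkp fell by 0.77 ± 0.23 (230.2 ± 5.29 CPM in Ythdf2-/- against 391 CPM in Ythdf2+/+) and Pfkm, the muscle phosphofructokinase, fell by 0.79 ± 0.25 (103.5 ± 0.290 CPM in Ythdf2-/- against 179.6 CPM in Ythdf2+/+). Of 10 transport genes 1 was called, the glucose transporter Slc2a3, at 302 ± 112 CPM in Ythdf2-/- against 925 CPM in Ythdf2+/+ (-1.62 ± 0.24, adjusted p = 2.72e-06). Of 11 genes around pyruvate dehydrogenase 1 was called, the kinase Pdk3, which rose by 0.82 ± 0.25. DESeq2 called 1 of the other glycolytic enzymes, 1 transport gene and 0 genes around pyruvate dehydrogenase. Of 10 flux regulators and 5 other testis-enriched genes 0 were called by edgeR or DESeq2, with 1 and 2 at an unadjusted p under 0.05.

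**Figure D5:**
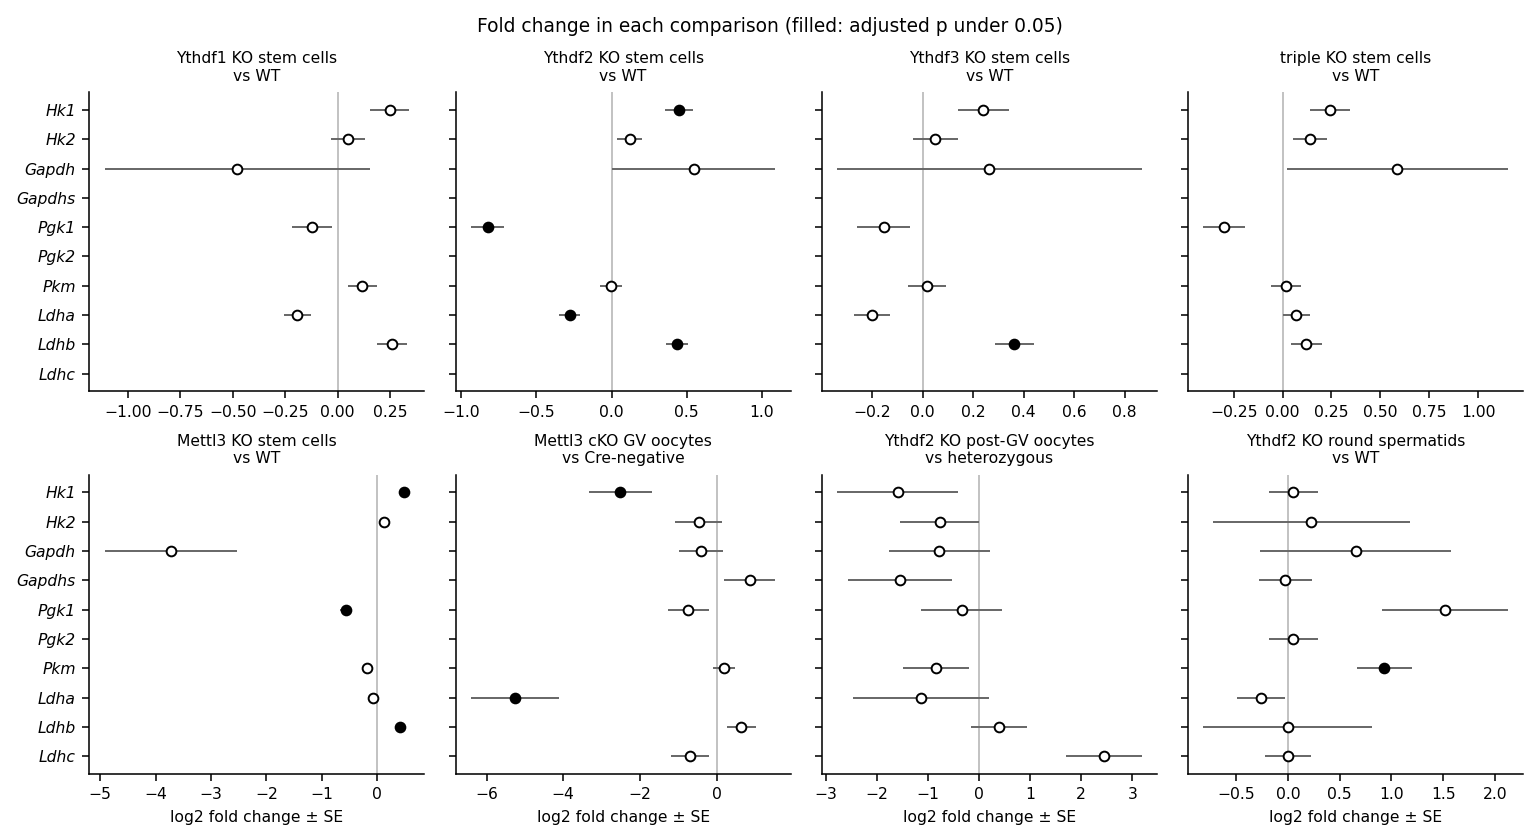
Log2 fold change ± standard error of each tested gene in the 8 comparisons, with scales that differ between panels; filled points have an adjusted p under 0.05. Pgk1 lies left of 0 in 5 of 5 stem cell panels and at 1.52 in spermatids, and Ldha lies at -5.26 in GV oocytes.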

How the data were processed

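Raw counts per gene, as the authors deposited them, entered the tests. The submitters' processing notes name mm10 and the tools STAR 2.4.2a, CASAVA 1.8.2, DESeq2 and cutadapt. Which program counted reads, with what annotation and strand setting, is not given in these sources. The signal columns deposited by the authors (counts divided by a size factor), their regularized log2 values and fold changes, their mean of normalized counts (other) and their deposited p-values were not tested. The authors' deposited batch-adjusted log2 values were used to read the post-GV batch, which no header names.

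The 10 genes and the related and marker lists were chosen with earlier results of these data known. Tables were fitted separately with edgeR 4.0.16 and limma 3.58.1 under R 4.3.3 (TMM, filterByExpr, robust quasi-likelihood), and DESeq2 1.42.0 was an alternative. All 12 stem cell libraries entered a single fit with 11951 genes kept; 13551, 13910 and 16031 were kept for GV oocytes, post-GV oocytes and spermatids. Exon and coding lengths came from GENCODE M21 (GRCm38), with 96.0% to 96.3% of symbols matched. Named besides the 10 genes are called genes of the related lists, at most 4 a list and comparison by smallest p (from which examples were picked), the knocked-out genes, markers beside a result, and the closest patterns of genes called in stem cells. Every table lists genes with a highest count of at least 6. A post-GV control title repeats replicate 2 and its bracketed name gives 3, which was used. The scripts were tested on simulated counts. Standard errors and intervals cover at most counting error and replicate spread. In stem cells, where replicates lay closer together than counting error, they can be narrower than counting error alone. A result of the related lists in spermatids is not reported here.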

Additional observations from a re-analysis of the deposited data

Results flagged for a closer look

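Hk1 in Zp3-Cre- library 3 stood apart from the other Zp3-Cre- GV libraries, at 3.36 CPM against a median of 1.11 CPM in the other 3. The gap made up 0.917 of the range, above Dixon's critical value for 4 samples. It was 1 of 9 genes examined in that group, and chance flags about 1 in 20. That library also had the highest granulosa and cumulus marker sum, 3651 per-kb units.

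Among 33 pairs of effects of the same gene's loss in different cell types, 3 had every library of both mutants outside its controls in opposite directions. The share of all genes with such a pattern was not counted, so these 3 are a description and no result about the cell types. With so few libraries a group, separation in both cell types can arise without an effect. The differences between cell types were not tested. Pgk1 in Ythdf2-/- against its controls was at -0.84 on the log2 scale of mean CPM in stem cells and 1.52 in spermatids, where it had 1.85 to 6.19 CPM. Ldhc in Ythdf2-/- was at -0.68 in stem cells, from 5 and 5 counts against 12 and 10 in WT, and 2.46 in post-GV oocytes. Hk1 on loss of Mettl3 was at 0.49 in stem cells and -2.53 in GV oocytes.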

How the results depend on the processing

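Over 642 values of single genes under other settings, 598 kept their side of the threshold or, without a test, moved by less than the main fit's standard error. Of the others 22 lost and 13 gained a call, 9 values without a test moved, and none reversed past the threshold. Among uncalled values 41 changed sign, and the 598 were not required to keep their direction. With DESeq2, members called were 0 in Ythdf2-/- stem cells, 0 in Ythdf3-/- and 0 in spermatids, and DESeq2 called 52 of all genes in Ythdf1-/-, 10 in Ythdf2-/- and 25 in Ythdf3-/- stem cells (edgeR 412, 228 and 340), 684 in the triple knockout (2996), 1156 in Mettl3-/- (3630), 394 in spermatids (785) and 94 in post-GV oocytes (0, or 258 with the batch term and 666 in the first batch only). With a minimum count of 30, members called were 1 in the triple knockout and 1 in GV oocytes, and with no filter 1 in GV oocytes and 1 in Ythdf1-/-. In the fit on compared groups only, 1 was called in Ythdf1-/-, and in the first post-GV batch only, 1. Leaving out each library in turn gave 1 to 2 members called in GV oocytes, 3 to 4 in Mettl3-/-, 0 to 1 in the triple knockout, 0 to 1 in Ythdf3-/-, 3 in Ythdf2-/- stem cells, and 0 in Ythdf1-/- and post-GV oocytes; of all genes it left 193 to 237, 54 to 123, 112 to 200, 1799 to 2235 and 2319 to 2819 called in Ythdf1-/-, Ythdf2-/-, Ythdf3-/-, triple knockout and Mettl3-/- stem cells and 2254 to 4243 in GV oocytes. The cause of these changes was not tested. RLE scaling changed no call of the 10 genes.

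Replicate numbers were not taken as pairs: deviations of same-numbered libraries correlated at 0.0919 to 0.417 in GV oocytes (2 of 3 over 0.1), -0.00 to 0.12 in stem cells and -0.61 and 0.43 in post-GV oocytes. With the replicate block, 1 member was called in Ythdf1-/- (Ldhb, adjusted p = 0.0496), 4 in Mettl3-/- (Gapdh added, -3.67, adjusted p = 0.0166) and 3 in GV oocytes (Ldhb added, 0.70, adjusted p = 0.0202). The block fits in oocytes also left out Zp3-Cre- library 4 and Ythdf2+/- library 3, whose numbers occur in no mutant library. The GV change is thus not of the block alone. No paired analysis was possible in spermatids because 1 control library carries 1 number. The batch within post-GV oocytes and the kit between tables limit levels, and the stem cell depth leaves Ldhc at 1 to 12 counts.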

Other observations

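The motif in which m6A is most often made holds the letters GGACT. In the longest protein-coding GENCODE transcript of each gene these letters occurred 7 times in Pkm (2.88 per kilobase), 11 in Hk1 (2.57), 4 in Pgk1 (2.19), 3 in Gapdhs (2.06), 10 in Hk2 (1.81), 2 in Ldhc (1.46), 2 in Gapdh (1.41), 2 in Pgk2 (1.23), 1 in Ldha (0.551) and 0 in Ldhb. The median over 21877 genes was 1.01 per kilobase. The letters were counted on the transcript strand only, and a match is no methylated site.

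For the 4 genes called in any stem cell comparison, the closest patterns over the 12 stem cell libraries were sought among the 5243 genes whose log2 CPM averaged 6 or more. Pgk1 was closest to Usp37 (Pearson r = 0.89) and Hyou1 (0.84). Ldha was closest to E130012A19Rik (0.84) and Fam111a (0.84), Ldhb to Cadm4 (0.86) and Ptdss2 (0.85), and Hk1 to Commd1 (0.92) and Nrm (0.88). Chosen after its values were seen, Gapdh was closest to Bex1 (0.97) and Prpf38a (0.96). The 12 points share 6 groups and their depth, and the highest of 5243 correlations is large by selection.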
